A study of Mus musculus with 16 samples.

Results

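The 8 genes described here handle heme and iron: Hmox1, Blvrb, Slc40a1, Fth1, Ftl1, Tfrc, Slc11a1 and Hp. Their rows were picked out by gene symbol, from a set drawn up with earlier results of these data known, and all 8 have a row among the 20200 genes of the deposited table and passed the filter on low expression that left 11998 genes for testing. The bulk RNA-seq measured myeloid cells from wild-type (WT) C57BL/6 mice (C57BL/6J in the methods), which were 12-week-old males after ACL reconstruction (ACLR), an operation in which the cut anterior cruciate ligament of the knee is replaced by a tendon graft passed through tunnels drilled in the femur and the tibia. Cells of the interface tissue around the graft were released with collagenase, dispase and DNase, and red cells were lysed. On day 1 and day 14 after surgery 4 populations of live, lineage-negative CD45+ cells were sorted: Ly6G+ neutrophils, Ly6G- CD11b+ F4/80- myeloid cells, F4/80+ CD9+ macrophages and F4/80+ CX3CR1+ macrophages. There is no group from uninjured tissue, each group has 2 libraries (16 in all), and each library came from pooled mice (5 to 7 by the legend of the study), so that the error shown is the spread between pools. Rare cells with both CD9 and CX3CR1 were sorted with the CD9+ macrophages.

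Heme set free from damaged red cells is taken up by phagocytes and opened by heme oxygenase 1, which releases iron, carbon monoxide and biliverdin. The iron is then stored in ferritin, a shell of heavy and light subunits, or leaves the cell through ferroportin, and iron enters most cells through the transferrin receptor. Iron regulatory proteins bind a hairpin in the mRNA of several of these genes, the iron-responsive element (IRE). In iron-poor cells this binding blocks translation where the IRE lies in the 5′ UTR and protects the mRNA from decay where it lies in the 3′ UTR, so read counts do not show the first kind of control.

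A search of Gencode M21 transcripts (GRCm38, the build of the deposited positions) for the IRE shape found it in 4 of the 8 genes. The search asked for a bulged C, a stem of 5 pairs with G-U pairs allowed, and a loop of CAGTG followed by A, C or T. They are shown because they divide the genes by the kind of control described above, with 30 bases each, 5′ to 3′ on the coding strand, and the 6 bases of the loop in capitals.
Fth1, 5′ UTR, chr19:9982732-9982761, plus strand: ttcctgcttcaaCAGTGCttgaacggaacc
Ftl1, 5′ UTR, chr7:45459778-45459807, minus strand: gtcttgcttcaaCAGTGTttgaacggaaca
Slc40a1, 5′ UTR, chr1:45925464-45925493, minus strand: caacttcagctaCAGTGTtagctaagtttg
Tfrc, 3′ UTR, chr16:32631219-32631248, plus strand: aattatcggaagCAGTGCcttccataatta
Tfrc, 3′ UTR, chr16:32631598-32631627, plus strand: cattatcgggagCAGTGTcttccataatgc
Tfrc, 3′ UTR, chr16:32631663-32631692, plus strand: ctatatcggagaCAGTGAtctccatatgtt
Tfrc, 3′ UTR, chr16:32631710-32631739, plus strand: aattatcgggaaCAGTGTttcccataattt
Both ferritin genes and Slc40a1 held 1 such hairpin in the 5′ UTR and Tfrc held 4 in the 3′ UTR. Over all 21877 genes with a protein-coding transcript, 23 (0.105%) held a match in the 5′ UTR and 100 (0.457%) in the 3′ UTR. A match describes letters and pairing, and other forms of the element were not searched.

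Between day 1 and day 14 Hmox1, the enzyme that opens heme, and both ferritin genes fell in every population, while no gene of the 8 rose by the thresholds used. A differentially expressed gene (DEG) had a Benjamini-Hochberg adjusted p under 0.05 in edgeR's quasi-likelihood test over all 11998 genes and a fold change of 1 or more, up or down, on the log2 scale. Of the 8 genes, 3 fell in CD9+ macrophages, where 8.23% of all genes were DEGs and 3.48% were DEGs that fell. In CX3CR1+ macrophages 3 fell (5.86% of all genes were DEGs, 3.47% lower on day 14). In F4/80- myeloid cells 4 fell (3.25% and 2.24%), and in neutrophils 3 fell (14.1% and 10.9%). Hmox1, Fth1 and Ftl1 were DEGs in each of the 4 populations, and Slc11a1 was the additional one in F4/80- cells. The median log2 fold change over the 8 genes was -0.82, -0.59, -0.61 and -0.81 in this order of populations, against medians between -0.02 and 0.03 over all genes tested.

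**Figure D1:**
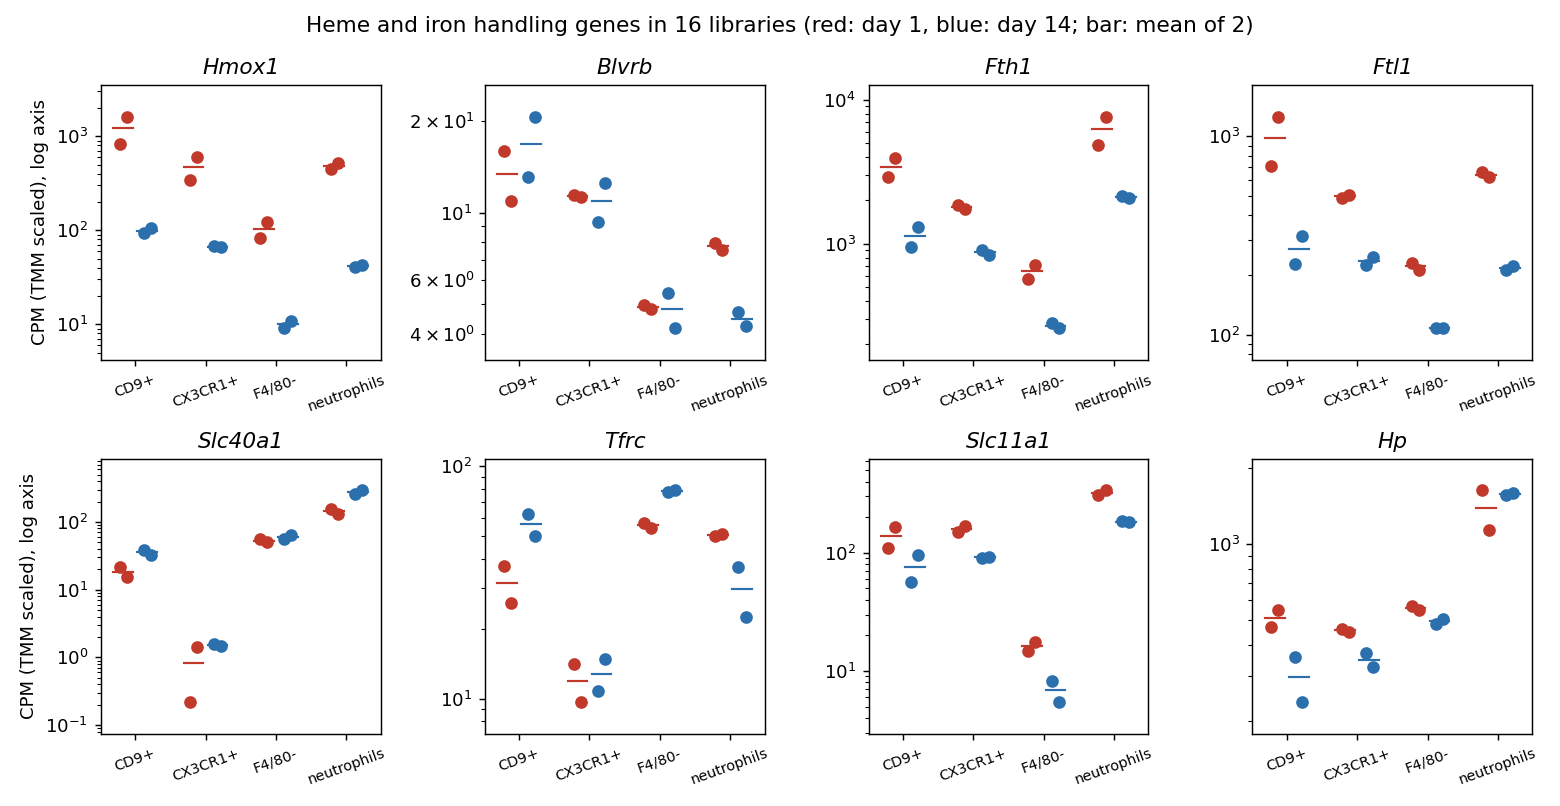
CPM of each of the 8 genes (vertical log axis) in the 4 sorted populations (horizontal axis), with 1 point per library, red for day 1 and blue for day 14, and a bar at the mean of 2 libraries. For Hmox1, Fth1 and Ftl1 the red points lie above the blue points of the same population in all 4 populations, and for Slc40a1 the CX3CR1+ points (0.220 to 1.57 CPM) lie below all others.

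Hmox1 (ENSMUSG00000005413, chromosome 8, 75093621 to 75100589 of mm10, plus strand) encodes heme oxygenase 1. In CPM (counts scaled to a common library size with TMM factors) the CD9+ libraries had 838 and 1617 on day 1 and 92.8 and 105 on day 14. CX3CR1+ macrophages went from 340 and 597 to 67.6 and 65.8. F4/80- cells had 82.9 and 124, then 9.09 and 10.9, and neutrophils had 444 and 524, then 41.0 and 43.0. All 8 libraries of day 1 lay above both day 14 libraries of the same population. Hmox1 fell by 3.63 on the log2 scale in CD9+ macrophages, with a standard error of 0.31 and an adjusted p of 3.99e-06 (edgeR). It fell by 2.81 in CX3CR1+ macrophages (0.30, 2.04e-05), by 3.37 in F4/80- cells (0.32, 2.28e-05) and by 3.53 in neutrophils (0.31, 8.85e-07), where here and below the brackets hold the standard error and the adjusted p from edgeR. Hmox1 was thus 12.4-fold, 7.02-fold, 10.4-fold and 11.5-fold lower on day 14. It remained a DEG over time in each population under all 8 other settings and with each library of the 2 groups left out in turn. In neutrophils the summed CPM of 8 macrophage markers was also lower, at 585 to 592 on day 1 and 183 to 188 on day 14. The part of macrophage transcripts in the neutrophil falls of Hmox1, Fth1, Ftl1 and Lrp1 was not tested.

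On day 1 CD9+ macrophages had the highest Hmox1, 1.34 above neutrophils on the log2 scale (standard error 0.28, adjusted p = 0.000603), and CX3CR1+ macrophages and neutrophils were neighbours that did not pass the test (adjusted p = 0.888). F4/80- cells were lowest, 2.18 below CX3CR1+ macrophages (0.29, 2.62e-05). On day 14 the neighbours CD9+ and CX3CR1+ macrophages did not pass (adjusted p = 0.17), nor did CX3CR1+ macrophages and neutrophils (0.0562), and F4/80- cells were 2.08 below neutrophils (0.32, 4.18e-05). The difference between CD9+ and CX3CR1+ macrophages on day 1, 1.39 (0.28, 0.0035), rested on single libraries: without CD9+ replicate 2 it was 0.84, without CX3CR1+ replicate 1 it was 1.02 (adjusted p = 0.0601), and in a fit of only the 4 libraries compared its adjusted p was 0.104. Without CD9+ replicate 2 the step between CD9+ macrophages and neutrophils was 0.79.

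Blvrb (ENSMUSG00000040466, chromosome 7, 27447978 to 27466144, plus strand) encodes a biliverdin reductase. It was low here, while Blvra, another biliverdin reductase gene, had 27.3 and 38.3 CPM in CD9+ macrophages on day 1. Blvrb passed no test of a change over time. CD9+ macrophages had 15.98 and 10.9 CPM of it on day 1, then 13.1 and 20.7. The values were 11.5 and 11.2, then 9.32 and 12.5 in CX3CR1+ macrophages, 4.98 and 4.81 then 5.45 and 4.16 in F4/80- cells, and 7.95 and 7.55 then 4.70 and 4.22 in neutrophils. The days overlapped in each population except neutrophils, where the log2 fold change was -0.80 (0.31, adjusted p = 0.0677). On day 14 Blvrb was higher in CD9+ macrophages than in neutrophils, by 1.92 (0.31, 5.40e-05), and than in F4/80- cells, by 1.80 (0.30, 0.000644).

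Fth1 and Ftl1 encode the heavy subunit of ferritin, which oxidises iron, and the light subunit, which helps to lay it down as mineral. Fth1 (ENSMUSG00000024661, chromosome 19, 9982703 to 9985092, plus strand) had 2904 and 3919 CPM in CD9+ macrophages on day 1 and 953 and 1298 on day 14. CX3CR1+ macrophages had 1859 and 1756, then 909 and 839, and F4/80- cells had 572 and 714, then 281 and 258. Neutrophils had 4890 and 7634, then 2147 and 2092. The 2 days did not overlap in any population, and the log2 fold changes were -1.60 (0.22, adjusted p = 0.000192), -1.05 (0.21, 0.00439), -1.25 (0.21, 0.00271) and -1.56 (0.22, 7.50e-05), in the order CD9+, CX3CR1+, F4/80- and neutrophils. Without CX3CR1+ day 14 replicate 2 the CX3CR1+ value was -0.99 (adjusted p = 0.0595), and without F4/80- day 14 replicate 2 the F4/80- value was -1.18 (adjusted p = 0.0538), so both calls needed those libraries.

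Ftl1 (ENSMUSG00000050708, chromosome 7, 45457944 to 45459884, minus strand) had 712 and 1258 CPM in CD9+ macrophages on day 1 and 228 and 313 on day 14, and 488 and 508 then 225 and 247 in CX3CR1+ macrophages. F4/80- cells had 230 and 211, then 108 and 108, and neutrophils 662 and 621, then 212 and 223. Ftl1 fell by 1.86 (0.21, adjusted p = 4.32e-05), 1.08 (0.21, 0.0027), 1.04 (0.21, 0.00747) and 1.56 (0.21, 5.48e-05) on the log2 scale, again with no overlap of days. In F4/80- cells the call was lost when day 1 replicate 1 or either day 14 library was left out (adjusted p between 0.0679 and 0.08). Processed copies of the ferritin genes can share reads with them, and the largest, Ftl2-ps, had between 1.42% and 12.2% of the counts of Ftl1. The handling of shared reads is not given, so these counts do not bound the error in the levels of the ferritin genes.

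The highest mean of Fth1 was in neutrophils on both days, 0.88 above CD9+ macrophages on day 1 (0.21, adjusted p = 0.00188) and 0.91 above on day 14 (0.21, 0.0014), which is under the fold threshold. The day 1 step passed it without CD9+ replicate 2 (1.11) or neutrophil replicate 1 (1.16), and the day 14 step without CD9+ replicate 2 (1.14). The highest mean of Ftl1 on day 1 was in CD9+ macrophages, 0.62 above neutrophils (0.20, 0.0137), also under the fold threshold. On day 14 Ftl1 did not pass between CD9+ and CX3CR1+ macrophages (adjusted p = 0.537) or between CX3CR1+ macrophages and neutrophils (0.631). F4/80- cells had the least of both, with Fth1 3.28 below neutrophils on day 1 (0.23, 1.39e-08) and 2.97 below on day 14 (0.23, 3.01e-08). Per length, which allows genes to be compared, Fth1 was the most abundant of the 8 genes in CD9+ macrophages on day 1, at 983 CPM per kb of exon, followed by Ftl1 at 735 and Hmox1 at 701. Hp was at 317, Slc11a1 at 37.4, Tfrc at 5.09, Blvrb at 4.83 and Slc40a1 at 2.03 CPM per kb.

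**Figure D2:**
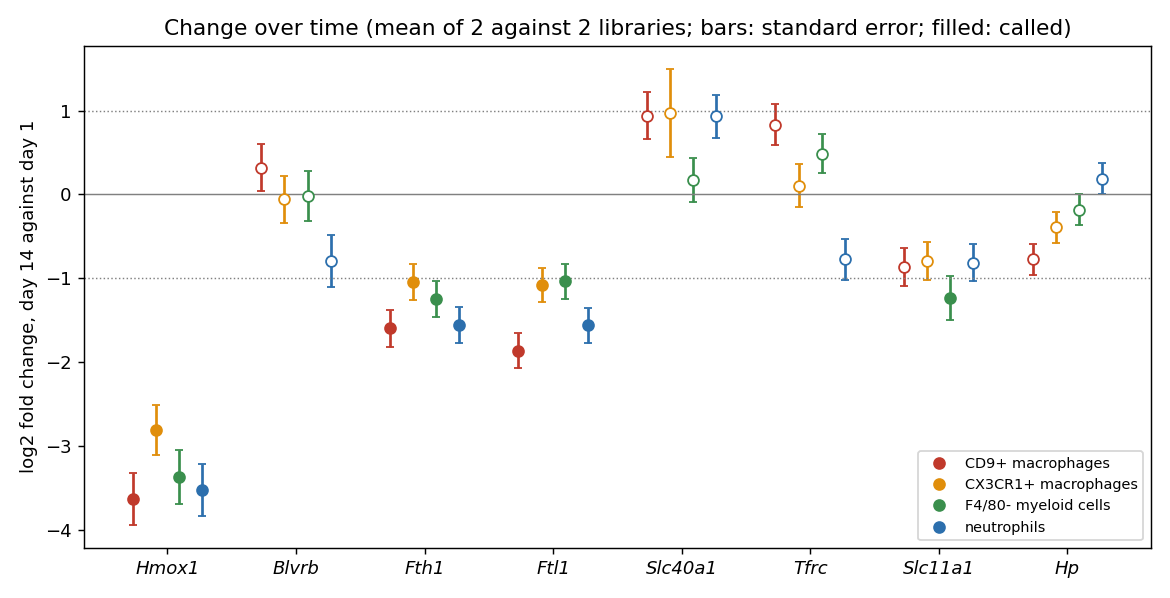
Log2 fold change from day 1 to day 14 (vertical axis) of each gene in the 4 populations (colours), from 2 libraries against 2, with standard errors as bars, DEGs filled and dotted lines at the fold threshold of 1. Hmox1 lies lowest in all 4 populations (-3.63 to -2.81), and Tfrc lies above 0 in CD9+ macrophages (0.83) and below 0 in neutrophils (-0.77).

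Slc40a1 (ENSMUSG00000025993, chromosome 1, 45908068 to 45926523, minus strand) encodes ferroportin, the known exporter of iron from mammalian cells. It was highest in neutrophils and nearly absent from CX3CR1+ macrophages. Neutrophils had 157 and 130 CPM on day 1 and 258 and 292 on day 14, F4/80- cells 55.4 and 50.9 then 56.7 and 63.2, and CD9+ macrophages 21.4 and 15.2 then 38.1 and 32.6. CX3CR1+ macrophages had 0.220 and 1.41 CPM on day 1 and 1.57 and 1.49 on day 14, which are 5, 27, 18 and 16 counts. On day 1 neutrophils were 1.44 above F4/80- cells (0.26, adjusted p = 0.000175), these were 1.53 above CD9+ macrophages (0.27, 0.000732), and CD9+ were 4.55 above CX3CR1+ macrophages (0.38, 1.37e-06). On day 14 the order was the same, with steps of 2.20 (0.27, 3.59e-06), 0.76 (0.27, 0.0775, not passed) and 4.53 (0.37, 3.88e-07). With library size scaling the first of the day 1 steps was 0.83. CD9+ macrophages were thus 23.5-fold above CX3CR1+ macrophages on day 1 and 23.03-fold above on day 14.

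Over time Slc40a1 was not a DEG in any population. In CD9+ macrophages and in neutrophils the day 14 libraries lay above those of day 1 with no overlap, by 0.94 (0.28, adjusted p = 0.03) and 0.93 (0.26, 0.0135) on the log2 scale, which passed the p but not the fold threshold. The neutrophil change was 1.08 without day 1 replicate 1 and 1.02 without day 14 replicate 1, and the CD9+ change was 1.13 when scaled by library size alone, each then past both thresholds. The change was 0.17 in F4/80- cells (0.26, 0.781) and 0.97 in CX3CR1+ macrophages (0.53, 0.267). The last rests on 1 library, since without day 1 replicate 2 it was 2.74 (adjusted p = 0.00547).

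The level of Slc40a1 moved with the sum of 10 neutrophil markers, though not with each of them. The summed CPM of 10 neutrophil markers (Ly6g, Cxcr2, Csf3r, Mmp8, S100a8, S100a9, Ngp, Camp, Retnlg and Mmp9) was 48524 to 95311 in neutrophils, 25346 to 34635 in F4/80- cells, 4321 to 16929 in CD9+ macrophages and 486 to 1095 in CX3CR1+ macrophages, and none of the 10 was at 0 in any group. Slc40a1 had between 1.47 and 3.52 CPM for each 1000 CPM of these markers in the 14 libraries other than CX3CR1+ day 1, and 0.201 and 1.33 in those. On both days Csf3r and Mmp8 were higher in CX3CR1+ than in CD9+ macrophages, and the other markers were lower. Csf3r had 210 and 218 then 232 and 238 CPM in CX3CR1+ macrophages, against 156 and 121 then 121 and 91.3. On day 14 Mmp8, Mmp9 and Retnlg were lower in F4/80- cells than in CD9+ macrophages, and the other markers were higher. Ly6g, the antigen on which neutrophils were sorted, had 0.106 to 4.99 CPM in CD9+ macrophages and 6.97 to 10.1 in F4/80- cells, against 81.7 to 286 in neutrophils. The part of neutrophil transcripts in the Slc40a1 of the other populations was not tested. In bulk samples, more cells of a type and more RNA per cell cannot be told apart.

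**Figure D3:**
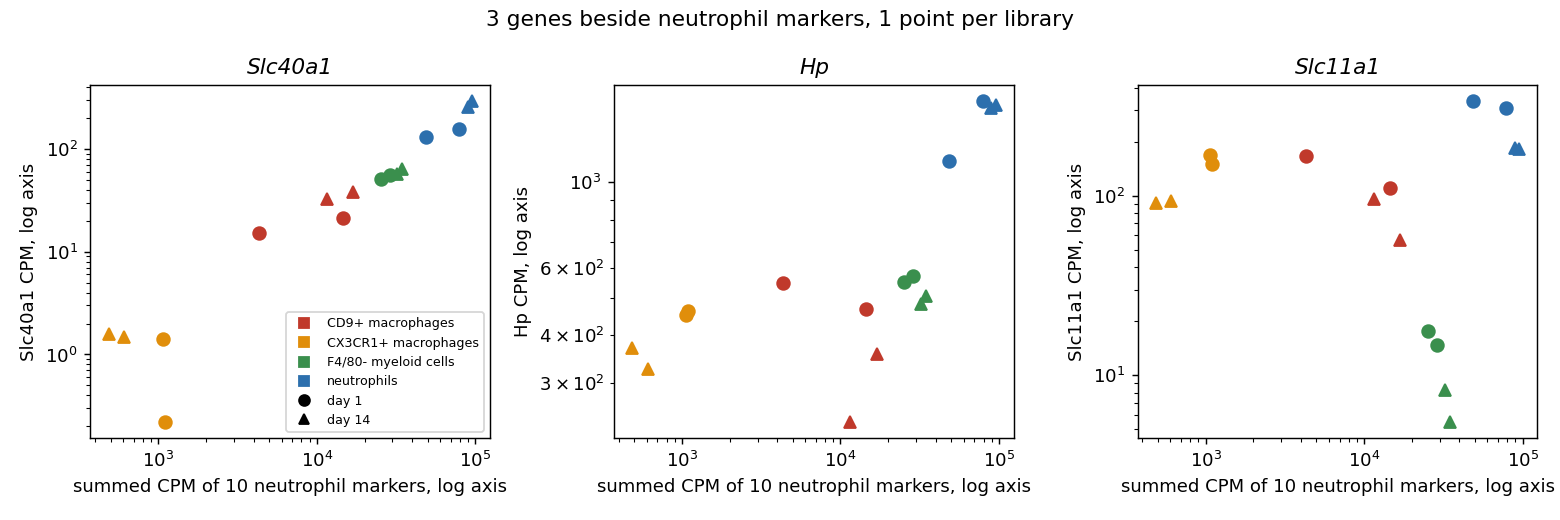
CPM of Slc40a1, Hp and Slc11a1 (vertical log axes) against the summed CPM of 10 neutrophil markers (horizontal log axes) in 16 libraries, coloured by population, circles for day 1 and triangles for day 14. Slc40a1 climbs with the summed markers from CX3CR1+ macrophages to neutrophils, and Slc11a1 is lowest in F4/80- cells. Hp is at 451 and 463 CPM in the CX3CR1+ libraries of day 1, where the marker sum is low though not each marker is.

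Tfrc (ENSMUSG00000022797, chromosome 16, 32608920 to 32632794, plus strand) encodes the transferrin receptor, through which cells take up transferrin-bound iron, and bears the 4 hairpins of the 3′ UTR shown above. It had 37.1 and 25.9 CPM in CD9+ macrophages on day 1, then 62.4 and 50.3. Neutrophils had 49.9 and 51.3, then 37.0 and 22.4. The days did not overlap in either population, and the order of days was opposite. The log2 fold change was 0.83 in CD9+ macrophages (0.24, adjusted p = 0.0273) and -0.77 in neutrophils (0.24, 0.0278), each under the fold threshold. The fold threshold was passed in CD9+ macrophages with library size scaling (1.02) and in neutrophils without day 14 replicate 1 (-1.17). The difference between these changes, tested as an interaction in the same model, was 1.61 (0.34, adjusted p = 0.0073) and passed both thresholds, as it did in each alternative and with each library left out.

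In F4/80- cells Tfrc had 56.9 and 54.3 CPM, then 77.3 and 78.6, a change of 0.49 (0.23, adjusted p = 0.262), and in CX3CR1+ macrophages 14.1 and 9.67, then 10.8 and 14.8, a change of 0.10 (0.26, 0.851). CX3CR1+ macrophages had the least Tfrc on both days, 1.41 below CD9+ macrophages on day 1 (0.25, 0.00126) and 1.21 below neutrophils on day 14 (0.26, 0.000686). The day 1 call was lost when the compared libraries were fitted alone (adjusted p = 0.0566). The day 14 step dropped under the fold threshold with library size scaling (0.71) and without CX3CR1+ replicate 1 (0.98) or neutrophil replicate 1 (0.81). At the top, F4/80- cells and neutrophils did not pass on day 1 (adjusted p = 0.623), nor did F4/80- cells and CD9+ macrophages on day 14 (0.241). On day 14 the CD9+ libraries also carried transcripts of eosinophils: the summed CPM of Epx, Prg2 and Siglecf was 5786 to 9363 there, 457 to 546 in CD9+ macrophages on day 1 and at most 113 in the other groups. Their part in the CD9+ values of day 14 was not tested.

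Slc11a1 (ENSMUSG00000026177, chromosome 1, 74375195 to 74386062, plus strand) encodes NRAMP1, a metal transporter of the phagosome that C57BL/6 mice are known to carry in a non-functional form. It had 307 and 337 CPM in neutrophils on day 1 and 185 and 182 on day 14, 149 and 169 then 90.5 and 93.0 in CX3CR1+ macrophages, and 111 and 167 then 56.8 and 95.3 in CD9+ macrophages. F4/80- cells had 14.7 and 17.6, then 8.22 and 5.47. Each population was lower on day 14 with no overlap, by log2 fold changes of -0.82 (0.22, adjusted p = 0.0131) in neutrophils, -0.79 (0.22, 0.03) in CX3CR1+ and -0.86 (0.23, 0.0169) in CD9+ macrophages, which are under the fold threshold. The CD9+ change was -1.28 without day 14 replicate 2 and passed. In F4/80- cells it fell by 1.23 (0.26, 0.0111), a call lost without day 1 replicate 2 or day 14 replicate 2 (adjusted p = 0.0906 and 0.169). F4/80- cells were 3.10 below CD9+ macrophages on day 1 (0.25, 5.77e-07) and 3.46 below on day 14 (0.27, 3.69e-07). Their summed neutrophil markers were higher on both days. On day 14 Retnlg (10.5 and 12.3 CPM), Mmp9 (28.4 and 44.8) and Mmp8 (17.9 and 20.9) were lower than in CD9+ macrophages, and the other markers were higher. CD9+ macrophages had 243 and 265, 165 and 142, and 48.4 and 21.7 CPM of these 3. The part of neutrophil transcripts in Slc11a1 was not tested. The macrophages did not pass against each other on either day (adjusted p = 0.596 and 0.431).

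Hp (ENSMUSG00000031722, chromosome 8, 109575128 to 109579172, minus strand) encodes haptoglobin, a secreted protein that binds free hemoglobin and is also stored in neutrophil granules. It was highest in neutrophils, with 1628 and 1137 CPM on day 1, then 1566 and 1590. The other populations lay close together on day 1, at 469 and 549 in CD9+ macrophages, 463 and 451 in CX3CR1+ macrophages and 570 and 551 in F4/80- cells, and neutrophils were 1.30 above F4/80- cells (0.19, adjusted p = 1.92e-05), or 0.69 with library size scaling. On day 14 they had 357 and 238, 372 and 326, and 484 and 506. The change was -0.78 in CD9+ macrophages (0.19, 0.0103; -1.08 without day 14 replicate 1), under the fold threshold, -0.39 in CX3CR1+ macrophages (0.19, 0.197), -0.18 in F4/80- cells (0.18, 0.665) and 0.19 in neutrophils (0.18, 0.485). The CD9+ and neutrophil changes differed by -0.97 (0.26, 0.0282), just under the fold threshold. CX3CR1+ macrophages had 423 to 765 CPM of Hp for each 1000 CPM of summed neutrophil markers and the other populations 14.6 to 127. On day 1 Csf3r (210 and 218 CPM) and Mmp8 (218 and 220) were higher in CX3CR1+ than in CD9+ macrophages, and the other markers were lower. CD9+ macrophages had 156 and 121 CPM of Csf3r and 87.0 and 73.5 of Mmp8.

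Between populations, macrophages and F4/80- cells differed in most of the 8 genes. On day 1, CD9+ macrophages differed from F4/80- cells in 6 of the 8 genes, where 15.4% of all genes were DEGs, and 5 of the 6 were higher in CD9+ macrophages, where 9.23% of all genes were. CX3CR1+ macrophages differed from F4/80- cells in 7 (21.1% of all genes), of which 5 were higher in CX3CR1+ macrophages (10.2%). On day 14 CD9+ macrophages differed from F4/80- cells in 5 genes (7.7%), all 5 higher in CD9+ macrophages (6.59%), and CX3CR1+ macrophages in 7 (21.5%), 5 of them higher (11.1%). Hmox1, Blvrb, both ferritin genes and Slc11a1 were lower in F4/80- cells in all 4 of these comparisons. The call of Blvrb against CX3CR1+ macrophages on day 14 was lost without CX3CR1+ replicate 2 (0.95, adjusted p = 0.0723) or F4/80- replicate 2 (0.98, adjusted p = 0.0744). Slc40a1 was higher in F4/80- cells in 3 of them, with CD9+ macrophages of day 14 as the exception, and Tfrc in the 2 with CX3CR1+ macrophages. CD9+ macrophages differed from CX3CR1+ macrophages in 3 genes on day 1, Hmox1, Slc40a1 and Tfrc (8.23%), and in 2 on day 14, Slc40a1 and Tfrc (14.2%), each of them higher in CD9+ macrophages (6.36% and 9.65% of all genes). Against neutrophils the share of all genes was high, and the counts of 4 of the 8 genes for CD9+ (49.5%), 5 for CX3CR1+ (51%) and 6 for F4/80- cells (49%) on day 1, and 5 (49.5%), 5 (48%) and 7 (48.7%) on day 14, are read against that. Scaled by library size alone, the other populations shifted upwards against neutrophils by 0.33 to 0.61 on the log2 scale in the median of all genes, and on day 1 F4/80- cells then differed from neutrophils in 3 of the 8 genes. The 7 on day 14 include Ftl1, 1.01 lower in F4/80- cells (0.21, 0.000498), which was under the fold threshold with library size (-0.45) and upper quartile scaling (-0.77), with no filter (-0.96), with 3 CPM asked of every group (-0.80) and without F4/80- replicate 1, F4/80- replicate 2 or neutrophil replicate 2 (-0.98 to -0.97).

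The changes over time of the 8 genes differed between CD9+ macrophages and neutrophils in 1 gene, Tfrc, where 8.03% of all genes did. Against CX3CR1+ macrophages 0 of the 8 differed (2.28% of all genes) and against F4/80- cells 0 (1.69%), by edgeR's test and by DESeq2, with 1 and 2 genes at an unadjusted p under 0.05. These counts changed when CD9+ day 1 replicate 1 was left out. That library held 14544 CPM of neutrophil markers against 4321 in its replicate, and the pair was the least alike of the 8 groups (Pearson correlation of log2 CPM 0.935, against 0.976 to 0.988). Without that library the log2 fold changes over time in CD9+ macrophages were -1.13 for Slc11a1, 1.22 for Slc40a1 and 1.12 for Tfrc.

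A list of 49 other genes of heme and iron metabolism, of which 42 could be tested, was counted in the same way. In CD9+ macrophages 5 of the 42 (11.9%, against 8.23% of all genes) fell and 0 rose. In CX3CR1+ macrophages 4 fell and 1 rose (11.9%, against 5.86%), in F4/80- cells 1 fell (2.38%, against 3.25%), and in neutrophils 5 fell and 1 rose (14.3%, against 14.1%). The list had medians between -0.09 and 0.00 on the log2 scale. Slc39a14, a transporter of iron that is not bound to transferrin, was the one that fell in all 4 populations. It had 47.8 and 91.6 CPM in CD9+ macrophages on day 1 and 10.2 and 12.9 on day 14, and its log2 fold changes were -2.59 (0.30, adjusted p = 4.68e-05) in CD9+, -3.65 (0.33, 5.17e-06) in CX3CR1+, -1.9999 (0.34, 0.00238) in F4/80- cells and -3.50 (0.48, 7.44e-05) in neutrophils. Neutrophils had under 1 CPM of it on day 14 (0.482 and 0.515).

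**Figure D4:**
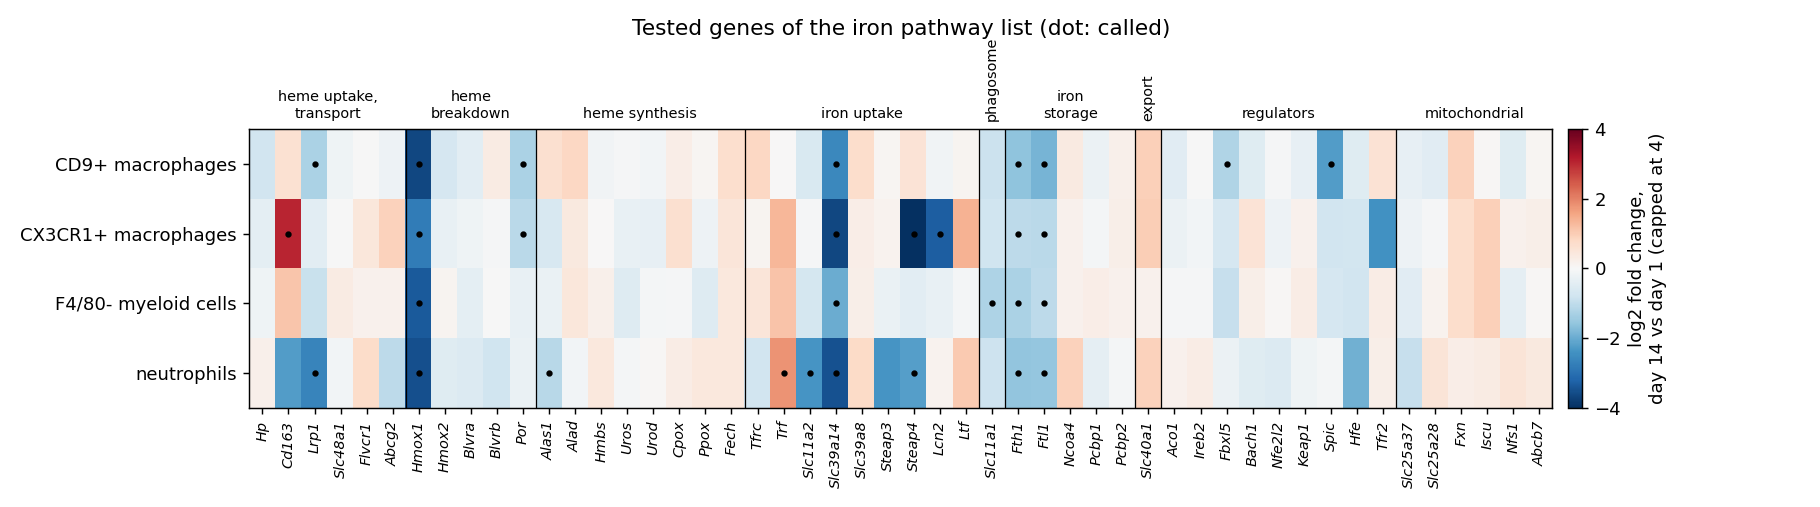
Log2 fold change from day 1 to day 14 (colour, blue lower and red higher on day 14, capped at 4) of the 50 tested genes of the iron list, the 8 genes included, ordered by role along the horizontal axis, in 4 populations, with a dot on each DEG. Hmox1, Slc39a14, Fth1 and Ftl1 carry a dot in all 4 rows, and heme synthesis and mitochondrial iron genes carry 1 dot in all, at Alas1 in neutrophils. Steap4 in CX3CR1+ macrophages had 0 counts on day 14 and lies beyond the end of the colour scale.

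By role, heme handling gave few DEGs beyond Hmox1. Por, the reductase that feeds it electrons, fell in CD9+ macrophages (-1.27, 0.19, adjusted p = 0.000446) and CX3CR1+ macrophages (-1.09, 0.19, 0.00141). Lrp1, a receptor that takes up heme bound to hemopexin among many other ligands, fell in CD9+ macrophages (-1.25, 0.23, 0.00181) and in neutrophils (-2.63, 0.25, 1.87e-06). Among receptors, Cd163, which takes up hemoglobin bound to haptoglobin, was higher on day 14 in CX3CR1+ macrophages (3.04, 0.77, 0.0172), from 0.220 and 0.784 CPM to 3.31 and 4.92. Of 8 heme synthesis genes, Alas1, the first enzyme of the pathway, fell in neutrophils (-1.10, 0.12, 9.82e-06), and none of the 8 was a DEG over time in the other populations.

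Iron uptake and its regulators gave the remaining DEGs. Lcn2, which binds the iron carriers of bacteria, fell in CX3CR1+ macrophages from 430 and 385 CPM to 38.5 and 43.9 (-3.31, 0.39, adjusted p = 4.98e-05), with summed neutrophil markers at 1064 to 1095 CPM on day 1 and 486 to 609 on day 14. Of the 10 markers, 4 were lower in both day 14 libraries (S100a8, S100a9, Cxcr2 and Mmp8), 4 were higher (Ly6g, Csf3r, Retnlg and Mmp9) and 2 overlapped, and their part in the fall of Lcn2 was not tested. Steap4, a metalloreductase, had 20 and 26 counts in CX3CR1+ macrophages on day 1 and 0 in both libraries on day 14, at least 4.14-fold lower when day 14 is set to 3 counts per library, and it fell in neutrophils (-2.20, 0.42, 0.00151). In neutrophils Slc11a2, an iron importer, fell (-2.36, 0.72, 0.0232), from 26 and 18 counts to 5 and 1. The part of macrophage transcripts in this fall was not tested. Trf, transferrin itself, rose in neutrophils (1.79, 0.59, 0.0358), at under 15 CPM. Among 9 regulators, Fbxl5, which marks an iron regulatory protein for breakdown, fell in CD9+ macrophages (-1.21, 0.15, 9.94e-05), as did Spic, a factor of iron-recycling macrophages (-2.24, 0.58, 0.0158), from 7.50 and 3.59 CPM to 1.63 and 0.710. The regulators held no DEG over time in the other 3 populations.

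Nrf2 is a transcription factor of the oxidative stress response that is known to activate Hmox1 and both ferritin genes. A list of 10 of its other targets held 0 DEGs over time in CD9+ macrophages by edgeR and by DESeq2 (2 at an unadjusted p under 0.05). It held 2 in CX3CR1+ macrophages (20%, against 5.86% of all genes), 2 in F4/80- cells (20%, against 3.25%) and 4 in neutrophils (40%, against 14.1%), all lower on day 14. Their medians were -0.16, -0.52, -0.60 and -0.50. Slc7a11, a cystine importer, fell by 2.45 (0.43, adjusted p = 0.0014) in CX3CR1+ macrophages, by 2.08 (0.44, 0.0106) in F4/80- cells and by 1.85 (0.38, 0.00216) in neutrophils, and Srxn1, sulfiredoxin, by 1.70 (0.32, 0.00257), 1.68 (0.36, 0.0113) and 1.95 (0.31, 0.000304). In neutrophils Prdx1, a peroxiredoxin, fell by 1.34 (0.20, 0.000168) and Gclc, an enzyme of glutathione synthesis, by 1.58 (0.27, 0.000481).

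The likeness of patterns was described by Pearson's r of log2 CPM over the 16 libraries, which share their groups, so that r carries no test. Of all other genes, Ftl1 was the one most like Hmox1 (r = 0.97), followed by Mcfd2 (0.96) and Tcf7l2 (0.95). The genes most like Fth1 were Snapc1 (0.98), Kif1c (0.97) and Clec4d (0.96), those most like Slc11a1 were Pla2g7 (0.98), C130050O18Rik (0.98) and Rbm47 (0.97), and those most like Hp were Trem1, Sipa1 and Stx5a (each 0.98). Slc40a1 was most like Chil1 (0.99), Olfm4 (0.99) and Itgb2l (0.99), of which Olfm4 encodes a protein of neutrophil granules. Tfrc was most like Clec4b2 (0.95), Jade1 (0.94) and Tanc1 (0.93), and Blvrb most like Pparg (0.94), Cdk14 (0.94) and Ms4a7 (0.94). Among the 8 genes, Fth1 and Slc11a1 had r = 0.92 and Fth1 and Ftl1 0.86, while Slc40a1 had -0.27 with Hmox1 and 0.10 with Fth1.

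The labels were set beside cell type markers. The summed CPM of 8 macrophage markers was 1087 to 1767 in both macrophage populations and 178 to 214 in F4/80- cells. In CX3CR1+ macrophages 6 of the 8 were lower in both day 14 libraries, 0 were higher and 2 overlapped. Of the 6, C1qb went from 158 and 124 CPM to 12.6 and 11.4. In CD9+ macrophages 2 were lower, 2 were higher and 4 overlapped. The part of these marker changes in the CX3CR1+ falls of Hmox1, Fth1 and Ftl1 was not tested. The neutrophil values are given beside Hmox1. Adgre1, which encodes F4/80, had 8.43 to 13.8 CPM in F4/80- cells. Reads of red cells were few. The summed CPM of 9 erythroid markers, among them Hba-a1, Hba-a2, Hbb-bs, Hbb-bt and Alas2, was 0.596 to 16.8 on day 1 and 10.3 to 34.2 on day 14, apart from 1 CX3CR1+ library of day 14 at 87.5. In each population these reads were higher on day 14. Red cells were lysed and the sorted cells were lineage-negative, and a link of these reads to Hmox1 was not tested. Lymphoid markers summed to at most 4.05 CPM. Timd4, a marker of resident macrophages, had at most 1.65 CPM in any library, and Vcam1 had 174 and 207 CPM in CD9+ macrophages on day 14 and 21.4 and 11.2 on day 1. Other such markers showed no rise of this size in CPM in CD9+ macrophages. Spic fell from 7.50 and 3.59 CPM to 1.63 and 0.710, Cd163 had 2.33 and 1.48, then 3.26 and 2.64, and Cd5l had at most 1.72.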

How the data were processed

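Per the labels and methods, adapters were trimmed with Cutadapt 1.15, reads were mapped to mm10 with STAR 2.5.3a, and the authors deposited whole-number counts per gene (exons of Gencode M23), not normalized. The strand setting and the handling of reads with several matches are not given in the sources used here. Total counts were 10587857 to 19814119 on day 1 and 9233952 to 12721779 on day 14, and the effect of this depth on the precision of low genes was not tested. Genes with a group mean of at least 3 CPM in at least 1 of 8 groups were kept, and 8 group means were fitted with TMM factors in edgeR 4.0.16 (R 4.3.3, glmQLFit and glmQLFTest), with one spread shared by all 16 libraries. With 2 libraries against 2, an exact permutation test cannot go below p = 0.333. Alternatives were DESeq2 1.42.0, other scalings, filters and thresholds, a fit of the compared libraries, a replicate block and leaving out each library. A library left alone in a group was assumed to vary like the others. Of the iron list, Slc46a1, Cybrd1, Cp, Heph and Hamp were below the filter, and Hpx and Flvcr2 were not analysed here. The text names the 8 genes, up to 6 further iron list DEGs per change over time with any regulator, up to 4 Nrf2 target DEGs, and the 3 genes most like each of the 8. The number of mice that the study reports for its 16 bulk samples is too small for separate mice in each library. The populations of a day thus share mice, but no source ties them by replicate number. The members and lists were chosen with earlier results of these data known. Lengths and hairpins come from Gencode M21. A floor of 3 counts covers counting error only, since reads are not independent molecules.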

Additional observations from a re-analysis of the deposited data

Results flagged for a closer look

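The change of Tfrc from day 1 to day 14 differed between CD9+ macrophages (0.83) and neutrophils (-0.77) by 1.61 on the log2 scale (standard error 0.34, adjusted p = 0.0073, interaction term of edgeR's quasi-likelihood fit), with each day 14 library above both day 1 libraries in CD9+ macrophages and below them in neutrophils. The difference passed in every alternative tried. For Hp the same difference was -0.97 (0.26, adjusted p = 0.0282), below the fold threshold, which it passed without CD9+ day 1 replicate 1 (-1.07), CD9+ day 14 replicate 1 (-1.30) or neutrophil day 1 replicate 1 (-1.25).

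Among the 42 other iron genes tested, 4 (9.52%, against 2.28% of all genes) changed differently in CD9+ and CX3CR1+ macrophages by the same test: Lcn2 by 3.16 (0.51, adjusted p = 0.00392), Alas1 by 1.26 (0.17, 0.00119), Bach1, a repressor of Hmox1, by -1.06 (0.19, 0.00725), and Steap4 by a fitted 7.47 (1.73, 0.0322), a value that depends on the prior count because Steap4 had 0 counts in CX3CR1+ macrophages on day 14. Between CD9+ macrophages and neutrophils the changes differed for 3 (7.14%, against 8.03% of all genes), Alas1 by 1.72 (0.17, 2.41e-05), Lrp1 by 1.38 (0.33, 0.0147) and Steap4 by 2.73 (0.72, 0.0264). On day 1 Lcn2 had 14012 and 9922 CPM in neutrophils and 2419 and 820 in CD9+ macrophages. The summed neutrophil markers of these CD9+ libraries were 14544 and 4321 CPM. The part of neutrophil transcripts in the CD9+ values of Lcn2 and Steap4 was not tested.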

How the results depend on the processing

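Of the changes over time, Hmox1 remained a DEG in all 4 populations under the 8 other settings and with each library left out, between -4.03 and -2.36 on the log2 scale. Scaled by library size alone, 5 of the 8 genes were DEGs over time in CD9+ macrophages, where the median of all genes moved by 0.19, 3 differed between F4/80- cells and neutrophils on day 1, and 1 other iron gene changed differently in CD9+ and F4/80- cells. Without a filter on low counts, 2 of the 8 and 5 other iron genes changed differently in CD9+ macrophages and neutrophils, and Blvrb in F4/80- cells reversed to 0.0036. With 3 CPM asked of every group, 7687 genes were left to test. The other iron genes then held 3, 2, 0 and 2 DEGs over time in CD9+, CX3CR1+, F4/80- cells and neutrophils, 3 of the 8 differed between CX3CR1+ macrophages and neutrophils on day 1, and 1 differed between CD9+ and CX3CR1+ macrophages on day 14. With no fold threshold, 7 of the 8 passed over time in CD9+ macrophages and 6 in neutrophils, 5 between CD9+ and CX3CR1+ macrophages and 8 between CD9+ macrophages and neutrophils on day 1, and 2 in the difference of changes between CD9+ macrophages and neutrophils. Of the other iron genes 8, 9, 4 and 13 then passed over time, and 1 and 7 in the difference from F4/80- cells and neutrophils. Fitting the compared libraries alone gave 3 other iron DEGs over time in CD9+ macrophages, 1 of the 8 genes between CD9+ and CX3CR1+ macrophages on day 1 and 2 other iron genes in their difference of changes. DESeq2 gave 5 other iron genes in the difference between CD9+ macrophages and neutrophils. Apart from these fits with fewer genes, fewer libraries or another threshold, the cause was not tested.

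With each library left out in turn, the number of the 8 genes that were DEGs over time ranged from 3 to 6 in CD9+ macrophages, 2 to 4 in CX3CR1+ macrophages, 1 to 3 in F4/80- cells (against 4 with all libraries) and 3 to 5 in neutrophils. It ranged from 2 to 5 between CD9+ and CX3CR1+ macrophages on day 1, and the number whose changes differed from CD9+ macrophages from 0 to 2 (CX3CR1+), 0 to 1 (F4/80-) and 1 to 3 (neutrophils). For the other iron genes the ranges over time were 3 to 6, 3 to 5, 1 to 1 and 4 to 8, and for the differences 2 to 6, 0 to 4 and 2 to 9. The highest counts of the differences came without CD9+ day 1 replicate 1. The number of DEGs over all genes also moved with the library left out. Small changes over time that were not DEGs turned sign. Tfrc in CX3CR1+ macrophages ranged from -0.15 to 0.40, Hp in neutrophils from -0.0455 to 0.47, and Blvrb from -0.0457 to 0.63 in CD9+ macrophages, from -0.28 to 0.13 in CX3CR1+ macrophages and from -0.23 to 0.17 in F4/80- cells.

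Over all genes, the DEGs over time numbered 988, 703, 390 and 1689 in the order CD9+, CX3CR1+, F4/80- and neutrophils. They numbered 336, 267, 158 and 733 with 3 CPM asked of every group, 2124, 1513, 732 and 3318 with no fold threshold, and 349 in CD9+ macrophages and 649 in F4/80- cells when the compared libraries were fitted alone. Under a replicate block in each day, 0 of 108 values of the 8 genes changed their call, and the 4 counts over time stayed at 3, 3, 4 and 3. Libraries with the same number deviated together only weakly (correlations from 0.0132 to 0.144), and no source says that a number marks a shared pool, so the pairing was not used. With the length of the longest transcript in place of all exons, CD9+ day 1 levels were 8.93 CPM per kb for Blvrb, 4.65 for Slc40a1, 1654 for Fth1, 6.43 for Tfrc, 50.8 for Slc11a1 and 379 for Hp, which puts Blvrb above Tfrc. At these depths Slc40a1 in CX3CR1+ macrophages rests on 5 to 27 counts per library. Its change over time there did not pass with all libraries (edgeR, adjusted p = 0.267), and the limit of detection was not tested.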
